A study of Mus musculus with 43 samples.

Results

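The proteasome genes described here are the mouse genes for the subunits, regulators and assembly factors of the proteasome, the protease that degrades proteins tagged with ubiquitin. They were chosen by name alone, as every symbol that starts with Psm followed by a letter from a to g and a number. The rule found 49 genes in each of 3 deposited expression tables, of 35815, 35842 and 35842 gene symbols, and it includes the inducible subunits Psmb8, Psmb9 and Psmb10. RNA-seq was done on full-grown oocytes and on morulae of mice carrying mutations of Polycomb repressive complex 1 (PRC1), which places ubiquitin on histone H2A. The oocyte groups of the first table were PRC1-CD, in which PRC1 is catalytically dead (2 libraries of 10 pooled oocytes), and PRC1-WT (2 libraries of 10 pooled oocytes). Those of the second table were TKO, lacking Pcgf1, Pcgf6 and Mll2 (3 libraries), DKO, lacking Pcgf1 and Pcgf6 (3 libraries), and WT (3 libraries). The third table held morulae whose mothers carried these deletions: matTKO (10 libraries), matDKO (10 libraries) and WT (10 libraries). PCGF1 and PCGF6 are subunits of variant PRC1, and MLL2, encoded by Kmt2b, is a histone H3K4 methyltransferase. The Cre driver, the exact alleles, the age and strain of the females and the genotype of the fathers are not given in the sources used here. In morulae only the maternal genotype was labelled, so a paternal copy may be present.

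A proteasome is built from a barrel, the 20S core, and a cap, the 19S regulator. The core stacks 2 outer alpha rings (Psma genes) on 2 inner beta rings (Psmb genes), and 3 beta subunits, PSMB5, PSMB6 and PSMB7, carry the proteolytic sites. The cap has a base of 6 ATPases (Psmc genes), which unfold the substrate, and a lid (most Psmd genes) that includes the deubiquitinase PSMD14. Alternative parts include the immunoproteasome subunits PSMB8, PSMB9 and PSMB10, which replace PSMB5, PSMB6 and PSMB7 in immune and interferon-treated cells, the thymus form PSMB11 and the spermatocyte form PSMA8. The activators PSME1 and PSME2 form a joint ring on the core. In oocytes and early embryos the ubiquitin-proteasome system is known to remove maternal proteins.

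In the libraries labelled as knockouts the deleted genes were low, although Pcgf6 kept part of its RNA. Pcgf1 was 10.7 to 13.7 RPKM in TKO and 10.6 to 13.4 RPKM in DKO oocytes, against 1077 to 1153 RPKM in WT oocytes. Pcgf6 was 61.9 to 81.6 RPKM in TKO and 55.0 to 60.3 RPKM in DKO, against 148 to 159 RPKM in WT. Kmt2b was 1.04 to 1.31 RPKM in TKO and 3.58 to 4.21 RPKM in DKO, against 4.43 to 5.16 RPKM in WT. Ring1, which encodes a ubiquitin ligase of PRC1, was 0.09 to 0.12 RPKM in TKO, 0.07 to 0.17 RPKM in DKO and 0.02 to 0.06 RPKM in WT, whereas it was 2.42 to 3.76 RPKM in PRC1-CD and 3.15 to 3.24 RPKM in PRC1-WT, a gap between the tables that the labels do not account for. A catalytic-dead allele need not change RNA levels, so the PRC1-CD label could not be checked this way. Oocyte markers were high in every oocyte library, and the second PRC1-CD library, whose tissue label reads embryo, had an oocyte marker sum of 13711 RPKM and a morula marker sum of 67.3 RPKM. Of the morulae, 5 libraries had a median correlation below 0.9 with the other morulae (matTKO replicates 8 and 9 and matDKO replicates 7, 8 and 9), so morula results are given with and without them. Sequencing depth is unknown, and oocyte values are RPKM while morula values are treated as TPM.

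Most proteasome genes were among the more abundant transcripts of the wild-type oocyte, and a few were nearly silent. Together the 49 genes made up 1.43% to 1.46% of the library total in WT oocytes and 1.31% to 1.98% in WT morulae. The highest in WT oocytes were Psma2 at 1143 ± 15.5, Psma7 at 1041 ± 85.9 and Psmb2 at 716 ± 21.2 RPKM (SD, n = 3). Psma2 and Psma7 encode alpha ring subunits and Psmb2 a beta ring subunit without a proteolytic site. The 7 standard alpha genes lay between 219 RPKM (Psma5) and 1143 RPKM (Psma2). Of the beta genes that carry proteolytic sites, Psmb5 had the lowest level, 117 ± 14.7 RPKM, beside 588 ± 17.0 for Psmb6 and 436 ± 8.17 for Psmb7. The 6 ATPase genes lay between 76.9 RPKM (Psmc3) and 320.2 RPKM (Psmc5).

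The nearly silent genes included 2 with standard roles. Psmd13, a lid subunit, had 1.66, 1.37 and 0.83 RPKM in the WT oocyte libraries, whereas the other 7 lid genes lay between 14.6 RPKM (Psmd3) and 200.4 RPKM (Psmd12). Psmg2, which pairs with PSMG1 as a chaperone of alpha ring assembly, had 1.66, 1.42 and 0.36 RPKM beside a mean of 94.0 RPKM for Psmg1. The activator genes were as uneven, with a mean of 0.293 RPKM for Psme1 and 31.8 RPKM for Psme2. The tissue-restricted genes were at the bottom: Psmb10 averaged 0.933, Psmb11 0.307, Psma8 0.113 and Psmb8 0.0267 RPKM, and Psmb9 was listed at 0 in all 3 libraries. PRC1-WT oocytes gave the same 3 lowest genes, with Psma8 at 0.15, Psmb8 at 0.035 and Psmb9 listed at 0 in both libraries, and the highest were Psma2, Psma7 and Psmb1 at 1099, 1023 and 654 RPKM.

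In the morula table several of these genes stood among the well expressed ones. The tables were normalised separately, so only ranks among the 49 genes and percentiles among all genes with a mean of at least 1 are set side by side, with no test. Ranks and percentiles do not remove differences in how a single gene was counted in each table. Which tool counted each table is not stated, and Ring1 differed even between the oocyte tables. The part of such differences in the shifts below was not tested. Psmd13 was at rank 41 and percentile 6.0 in WT oocytes and at rank 35 and percentile 88.0 in WT morulae, where it averaged 97.3 ± 17.9 TPM (SD, n = 10). Psmg2 was at percentile 3.2 in WT oocytes and at percentile 92.0 in WT morulae, at 164 ± 16.9 TPM. Psme1 averaged 84.1 ± 20.4 TPM in WT morulae and Psmb9 37.5 ± 20.1 TPM. Psmb5 was at rank 24 in WT oocytes and at rank 6 in WT morulae, at 840 ± 103 TPM. The opposite order was seen for Psmf1, encoding the regulator PI31, at rank 21 in oocytes and 42 in morulae, and for Psmd10, encoding the base chaperone gankyrin, at rank 25 and 43. The highest in WT morulae were Psma7, Psmb3 and Psmb6 at 1265, 1089 and 1016 TPM, and the lowest Psma8, Psmb11 and Psmb8 at 1.28, 0.142 and 0.018 TPM.

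**Figure D1:**
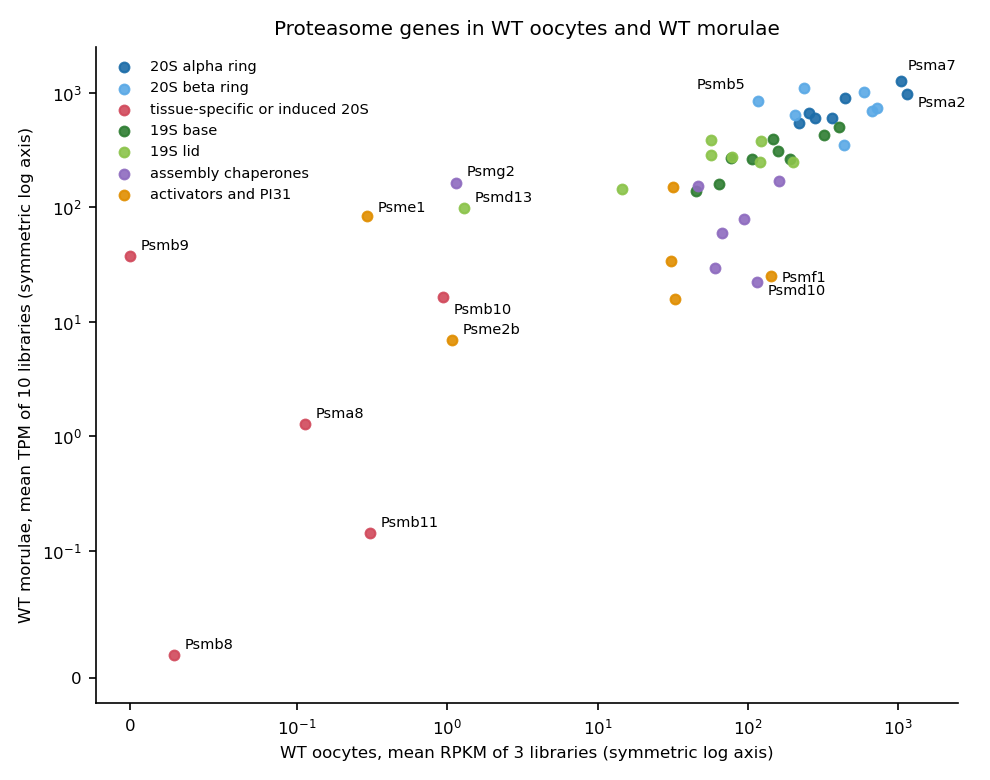
Mean level of each of the 49 proteasome genes in WT oocytes (x axis, RPKM, 3 libraries) and WT morulae (y axis, TPM, 10 libraries), both on symmetric log axes, coloured by role. Most standard subunits lie at the upper right, while Psmd13, Psmg2, Psme1 and Psmb9 lie far left with morula means of 97.3, 164, 84.1 and 37.5 TPM.

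Promoter windows of 300 bases (250 before to 50 after the start site, RefSeq, build GRCm38.p6) were matched for 41 of the 49 genes, giving 44 windows. No window was used for Psma8, Psmb1, Psmb2, Psmb7, Psmc3, Psmd3, Psmd7 and Psmg2. CpG dinucleotides matter here as background, because PCGF1-containing PRC1 and MLL2 are both recruited to CpG-rich DNA. The ratio of observed to expected CpG was at least 0.6 in 30 of the 44 windows (68.2%), against 35.8% of all 32851 windows of the table. Those windows include genes not expressed in oocytes, and the share among expressed genes was not computed. The difference is therefore not taken as particular to proteasome genes. The motif TGACNNNGC, the core of the antioxidant response element, was found on either strand in 6 of the 44 windows (13.6%), against 12.4% of all windows. These 6 belong to Psmb5, Psmb6, Psmc6, Psmd9, Psmd12 and Psme4. The windows of 4 genes that the comparisons below turn on are printed 5′ to 3′ on the gene's strand, with every CG in capitals. Psme2 and Psmb10 were higher in PRC1-CD and DKO oocytes, and Psmb5 and Psmc6 were lower in TKO oocytes. The Psme2 window lies at chr14:55591052-55591351 on the minus strand and holds 11 CG, with an observed over expected ratio of 0.54. The Psmb10 window lies at chr8:105938343-105938642 on the minus strand and holds 3 CG, with a ratio of 0.19. The Psmb5 window lies at chr14:54617946-54618245 on the minus strand and holds 20 CG, with a ratio of 1.0. The Psmc6 window lies at chr14:45329574-45329873 on the plus strand and holds 24 CG, with a ratio of 0.73.
Psme2: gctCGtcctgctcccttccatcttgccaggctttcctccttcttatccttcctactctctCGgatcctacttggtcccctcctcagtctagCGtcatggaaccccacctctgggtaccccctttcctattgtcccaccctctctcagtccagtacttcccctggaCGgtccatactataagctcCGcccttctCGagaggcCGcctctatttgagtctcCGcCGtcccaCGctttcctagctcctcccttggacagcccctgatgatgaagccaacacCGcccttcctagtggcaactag
Psmb10: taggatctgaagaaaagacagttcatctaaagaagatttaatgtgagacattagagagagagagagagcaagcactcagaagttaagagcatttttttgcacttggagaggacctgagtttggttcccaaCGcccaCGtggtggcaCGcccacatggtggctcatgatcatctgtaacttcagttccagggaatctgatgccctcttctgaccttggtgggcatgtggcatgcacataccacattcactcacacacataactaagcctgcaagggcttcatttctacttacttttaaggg
Psmb5: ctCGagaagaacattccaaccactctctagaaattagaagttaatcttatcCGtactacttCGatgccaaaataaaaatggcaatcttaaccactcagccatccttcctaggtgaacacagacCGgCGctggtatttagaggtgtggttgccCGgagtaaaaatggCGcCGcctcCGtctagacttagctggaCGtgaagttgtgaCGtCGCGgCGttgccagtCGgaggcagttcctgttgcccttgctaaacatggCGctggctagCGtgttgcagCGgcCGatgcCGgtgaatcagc
Psmc6: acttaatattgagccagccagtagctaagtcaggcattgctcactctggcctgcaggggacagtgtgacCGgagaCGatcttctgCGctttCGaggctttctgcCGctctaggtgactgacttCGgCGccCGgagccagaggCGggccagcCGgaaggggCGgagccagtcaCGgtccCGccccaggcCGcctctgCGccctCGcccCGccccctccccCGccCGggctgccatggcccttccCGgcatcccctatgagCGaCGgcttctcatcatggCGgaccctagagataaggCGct
The Psmb10 sequence thus had the fewest CG of the 4 and the Psmc6 sequence the most.

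The comparison of PRC1-CD with PRC1-WT oocytes asks which transcripts depend on the catalytic activity of PRC1. In PRC1-CD oocytes 6 of the 45 proteasome genes tested rose and 0 fell (limma, Benjamini-Hochberg adjusted p under 0.05 over all genes), and 39 were not called. The 6 were the activator gene Psme2 and its copy Psme2b, the immunoproteasome genes Psmb9 and Psmb10, and the lid genes Psmd7 and Psmd13. Of all 13376 genes tested, 17.3% were called higher and 5.61% lower, so the members' 13.3% called was below the background of 22.9% called in either direction. The median log2 change was 0.063 over the tested members and 0.04 over all genes. None of the 7 standard alpha ring genes, the 7 standard beta ring genes and the 6 ATPase genes was called.

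Psme2 (GRCm38 chromosome 14, 55587440 to 55591101) had 64.1 and 63.6 RPKM in PRC1-CD oocytes, against 29.8 and 33.5 RPKM in PRC1-WT oocytes. The groups did not overlap, and the log2 change was 0.99 ± 0.16 (SE, limma adjusted p = 0.00433). Psme2b, an intronless copy of Psme2 on chromosome 11 (48945345 to 48946410), had 2.25 and 2.50 RPKM in PRC1-CD, against 0.82 and 0.99 RPKM in PRC1-WT. Reads of the copy and of Psme2 may have been split between them, so the Psme2b values are uncertain. Its partner in the ring, Psme1, had 1.11 and 0.47 RPKM in PRC1-CD, against 0.19 and 0.20 RPKM in PRC1-WT, and was too low to be tested.

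Psmd7, a lid subunit that pairs with the deubiquitinase PSMD14, had 109 and 117 RPKM in PRC1-CD oocytes, against 62.9 and 72.8 RPKM in PRC1-WT oocytes. That is a log2 change of 0.73 ± 0.16 (limma adjusted p = 0.0161). Psmd13 had 7.13 and 5.13 RPKM in PRC1-CD, against 1.94 and 2.63 RPKM in PRC1-WT, a log2 change of 1.11 ± 0.22 (limma adjusted p = 0.0107). Both lid genes were higher in each PRC1-CD library than in either PRC1-WT library, and the other 6 lid genes were not called.

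Immunoproteasome genes rose as well, at very low levels. Psmb10 (chromosome 8, 105935728 to 105938392) had 2.12 and 2.46 RPKM in PRC1-CD oocytes, against 1.14 and 0.97 RPKM in PRC1-WT oocytes, a log2 change of 0.68 ± 0.17 (limma adjusted p = 0.029). Psmb9 had 0.84 and 3.70 RPKM in PRC1-CD and was listed at 0 in both PRC1-WT libraries (limma adjusted p = 0.0279), so no fold change is given. Psmb9 and Psme2b passed the filter of a group mean of at least 1 only through the PRC1-CD group, so they could be tested only because they were higher there. Psmb8 had 0.29 and 0.25 RPKM in PRC1-CD, against 0.04 and 0.03 RPKM in PRC1-WT, and was too low to be tested. With no filter on low values Psmb8 was called higher (limma adjusted p = 0.034), whereas Psmb9 and Psmb10 were not called (adjusted p = 0.129 and 0.0946). After quantile normalisation Psmb9 and Psmb10 were not called either (adjusted p = 0.105 and 0.156).

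Genes of antigen presentation, the pathway that immunoproteasomes feed, were examined as a separate list of 12 genes, of which 6 could be tested. In PRC1-CD oocytes 5 of the 6 rose. H2-K1, a class I heavy chain, averaged 15.8 ± 0.50 RPKM in PRC1-CD and 5.62 ± 0.014 RPKM in PRC1-WT (SD, n = 2 each), a log2 change of 1.34 ± 0.17 (limma adjusted p = 0.00166). B2m, the class I light chain, averaged 150.5 ± 6.87 RPKM in PRC1-CD and 88.4 ± 9.29 RPKM in PRC1-WT (limma adjusted p = 0.0134). H2-D1 and Ifngr2 also rose, while Irf1 was not called. The peptide transporter genes Tap1 and Tap2 were below 1 RPKM and not tested. The summed level of 12 granulosa and cumulus markers was 44.1 and 51.1 RPKM in PRC1-CD, against 20.8 and 21.3 RPKM in PRC1-WT. Of these markers 5 of 12 reached a mean of 1 in PRC1-CD and 2 of 12 in PRC1-WT, Amh was at 0 in PRC1-CD and Foxl2 at 0 in PRC1-WT, and their part in the result was not tested. Stroma and blood markers summed to 14.4 and 16.2 RPKM in PRC1-CD, against 11.4 and 13.7 RPKM in PRC1-WT, with Ptprc, the marker of white blood cells, below 1 RPKM in both groups. Spermatocyte markers summed to 376 and 393 RPKM in PRC1-CD, against 23.2 and 47.2 RPKM in PRC1-WT, with Tex101 and Tnp1 at 0 in all 4 libraries. Nearly all of that sum was Sycp3, a component of the meiotic chromosome axis, at 392 and 375 RPKM in PRC1-CD, against 23.1 and 46.7 RPKM in PRC1-WT. Prm1 was at 1.75 and 0.87 RPKM in PRC1-CD, against 0.13 and 0.43 RPKM in PRC1-WT, and the part of these markers in the result was not tested. The spermatocyte alpha subunit Psma8 had 0.18 and 0.42 RPKM in PRC1-CD, against 0.20 and 0.10 RPKM in PRC1-WT.

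With 2 libraries a group, no call among the 6 was kept in all 4 fits that each left out 1 library, and each of these fits called 1 gene. That gene was Psme2 without PRC1-WT replicate 1 or 2, Psmb9 without PRC1-CD replicate 1, and Psme1 without PRC1-CD replicate 2.

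Oocytes without PCGF1 and PCGF6 showed rises in part of the same genes. In DKO oocytes 9 of the 44 genes tested rose and 1 fell relative to WT, and 34 were not called. The background was 17.5% of all 12873 genes called higher and 11.3% called lower (28.8% in either direction), against 22.7% of the members called. The rises were in the activator Psme2 and its copy Psme2b, the lid genes Psmd7 and Psmd13, the assembly chaperone Psmg3, the immunoproteasome gene Psmb10, the beta ring gene Psmb3, the regulator Psmf1 and the ATPase Psmc1. The gene that fell was Psmd2, the large scaffold subunit of the base. The median log2 change was 0.059 over the members tested and 0.03 over all genes.

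Psme2 had 51.4, 61.8 and 61.7 RPKM in DKO oocytes, against 30.8, 31.9 and 32.8 RPKM in WT oocytes, a log2 change of 0.85 ± 0.11 (SE, limma adjusted p = 0.000285). Psmd7 had 92.9, 85.5 and 95.3 RPKM in DKO, against 59.3, 59.6 and 52.6 RPKM in WT, a log2 change of 0.67 ± 0.07 (limma adjusted p = 0.000136). Neither gene's groups overlapped, and the lowest DKO library exceeded the highest WT library by more than the range within WT.

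Psmg3, which forms a chaperone with PSMG4 during alpha ring assembly, had 74.7, 68.2 and 81.4 RPKM in DKO oocytes, against 46.4, 50.02 and 43.1 RPKM in WT oocytes. Its log2 change was 0.67 ± 0.08 (limma adjusted p = 0.000301), while Psmg4 itself was not called. Psmb10 had 1.83, 1.55 and 1.52 RPKM in DKO, against 0.81, 1.15 and 0.84 RPKM in WT (log2 change 0.45 ± 0.13, limma adjusted p = 0.0236). It passed the filter only through the DKO group. Psmd13 had 2.52, 3.6 and 2.67 RPKM in DKO, against 1.66, 1.37 and 0.83 RPKM in WT (log2 change 0.79 ± 0.25, limma adjusted p = 0.0375).

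Smaller changes were seen in standard subunits and in PI31. Psmb3 averaged 297.5 ± 11.2 RPKM in DKO and 234 ± 20.9 RPKM in WT oocytes (SD, n = 3 each), with a limma adjusted p of 0.00492. Psmf1 averaged 180.3 ± 8.67 RPKM in DKO and 142 ± 7.80 RPKM in WT (limma adjusted p = 0.0154), and Psmc1 167 ± 9.02 RPKM in DKO and 147 ± 4.10 RPKM in WT (limma adjusted p = 0.0435). Psmd2 averaged 36.4 ± 2.80 RPKM in DKO and 45.1 ± 2.23 RPKM in WT and fell by 0.30 on the log2 scale (limma adjusted p = 0.0477). The proteolytic genes Psmb5, Psmb6 and Psmb7 were not called. Psmg2 had the largest log2 change among genes not called, 0.95 ± 0.38, with 3.37, 3.09 and 2.56 RPKM in DKO, against 1.66, 1.42 and 0.36 RPKM in WT (limma adjusted p = 0.0842). Psmg2 was called higher in DKO in a fit on these 2 groups alone (adjusted p = 0.0177) and without TKO replicate 2 (adjusted p = 0.0132).

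Psmb3, Psmd7, Psme2 and Psmg3 were called in all 9 fits that each left out 1 library. The number called was 4 without WT replicate 3, 4 without DKO replicate 2 and 6 without DKO replicate 3, against 10 with all libraries. Of the antigen-presentation genes 4 of 5 tested rose in DKO oocytes, among them B2m and H2-K1. B2m averaged 204 ± 19.5 RPKM in DKO and 105.5 ± 11.3 RPKM in WT (limma adjusted p = 0.000176). Granulosa markers summed to 18.8 to 21.6 RPKM in DKO and 24.9 to 28.5 RPKM in WT, so they were lower in every DKO library. Spermatocyte markers, nearly all Sycp3, summed to 210 to 272 RPKM in DKO and 54.2 to 59.6 RPKM in WT. The part of both lists in the result was not tested.

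PRC1-CD and DKO oocytes share no libraries, so their calls can be set side by side. Of the 44 members tested in both sets, 5 were higher in both: Psmb10, Psmd7, Psmd13, Psme2 and Psme2b. They are all 5 of those called higher in PRC1-CD and 55.6% of the 9 called higher in DKO. Over the whole transcriptome 1024 genes met that condition, 59.3% of those called higher in PRC1-CD and 47.2% of those called higher in DKO. Psme2b could be tested in PRC1-CD, and Psmb10 in DKO, only through the group where each is high. After quantile normalisation 2 members, Psmd7 and Psme2, were higher in both, of 3 called higher in PRC1-CD and 5 in DKO. Psmg3 had 76.7 and 73.0 RPKM in PRC1-CD oocytes, against 64.9 and 63.5 RPKM in PRC1-WT oocytes, and was not called there (log2 change 0.22 ± 0.15, limma adjusted p = 0.338). Whether its change differs between the sets was not tested.

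**Figure D2:**
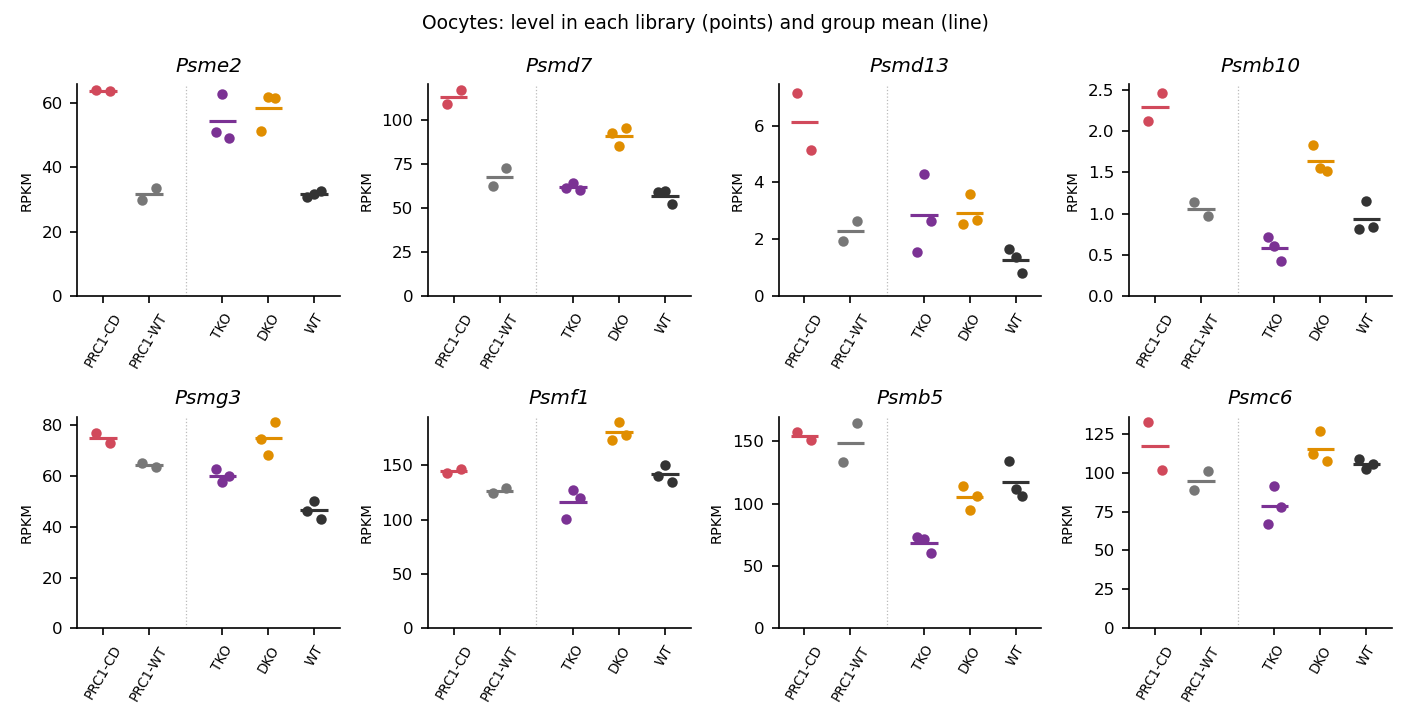
Level of 8 proteasome genes in each oocyte library (y axis, RPKM from 0; points are libraries and lines are group means), with PRC1-CD and PRC1-WT left and TKO, DKO and WT right of the dotted line, since the tables were normalised separately. Psme2, Psmd7, Psmd13 and Psmb10 are higher in PRC1-CD and DKO than in their controls, while Psmb5 and Psmc6 are lowest in TKO.

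In oocytes that also lacked MLL2 members changed in both directions. In TKO oocytes 9 of the 44 genes tested rose and 10 fell relative to WT, against a background of 31.2% of all genes called higher and 20.1% lower (51.3% in either direction). The members' share called, 43.2%, was therefore below that of all genes. By role, 4 of 6 ATPase genes and 2 of 3 proteolytic beta genes fell with none rising, whereas 2 of 4 assembly chaperones of the core rose with none falling. Alpha ring genes were split, with Psma4 higher and Psma5 lower, and so was the lid, with Psmd3 and Psmd13 higher and Psmd6 and Psmd14 lower. The split depends on the scaling of the libraries, with 7 rising and 14 falling after quantile normalisation and 7 rising and 15 falling after median-ratio scaling. Over all genes these scalings gave 3244 higher and 3085 lower, and 3373 higher and 3102 lower, against 4013 higher and 2592 lower on the deposited values.

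The largest fall relative to WT was in Psmb5, which carries the chymotrypsin-like site. It had 72.9, 71.6 and 60.3 RPKM in TKO oocytes and 114, 94.5 and 106 RPKM in DKO oocytes, against 134, 112 and 106 RPKM in WT oocytes. Every TKO library was below every DKO and WT library. The log2 change was -0.77 ± 0.11 for TKO against WT (SE, limma adjusted p = 0.000319) and -0.62 ± 0.11 for TKO against DKO (limma adjusted p = 0.00134), and for DKO against WT it was -0.15 ± 0.11 and not called (limma adjusted p = 0.325). Of the other proteolytic genes, Psmb6 averaged 522 ± 40.4 RPKM in TKO, 613 ± 19.7 RPKM in DKO and 588 ± 17.0 RPKM in WT, and fell (limma adjusted p = 0.0409 against WT and 0.0118 against DKO). Psmb7 was called in neither.

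Of the 6 ATPase genes 5 were lower in TKO than in DKO oocytes, and Psmc3 was not called. The background there was 21.8% of all genes called lower. Psmc6 had 66.8, 91.2 and 77.9 RPKM in TKO oocytes and 112, 127 and 107 RPKM in DKO oocytes, against 109, 102 and 106 RPKM in WT oocytes. Its log2 change was -0.43 ± 0.11 against WT (limma adjusted p = 0.00722) and -0.55 ± 0.11 against DKO (limma adjusted p = 0.00205). Psmc5 averaged 256 ± 27.4 RPKM in TKO, 320.7 ± 23.9 RPKM in DKO and 320.2 ± 14.0 RPKM in WT, a log2 change of -0.32 ± 0.09 against WT (limma adjusted p = 0.00997). Psmc2 and Psmc4 fell by 0.30 and 0.18 on the log2 scale against WT. Psmc1 fell by 0.32 against DKO (limma adjusted p = 0.0018) and was not called against WT (log2 change -0.13 ± 0.06, adjusted p = 0.0855). Summed over the 6 genes, the ATPase level was 848 ± 65.9 RPKM in TKO and 1047 ± 50.9 RPKM in DKO, against 1000 ± 12.7 RPKM in WT (SD, n = 3 each). Under quantile and median-ratio scaling 5 of 6 ATPase genes were lower in TKO than in WT, and under each scaling tried 5 of 6 were lower in TKO than in DKO.

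Other subunits of the core and the cap fell less. Psma5 averaged 181 ± 20.9 RPKM in TKO and 228 ± 9.59 RPKM in DKO oocytes, against 219 ± 2.12 RPKM in WT oocytes (limma adjusted p = 0.0157 for TKO against WT). Psmd14, the lid deubiquitinase, had 35.2, 53.3 and 42.4 RPKM in TKO and 59.6, 58.5 and 56.7 RPKM in DKO, against 53.7, 59.3 and 56.4 RPKM in WT (log2 change -0.38 ± 0.12 against WT, limma adjusted p = 0.0249). Its second TKO library lay within 1 RPKM of the lowest WT library. Psmd6, another lid subunit, averaged 101 ± 2.14 RPKM in TKO, against 120.4 ± 4.41 RPKM in WT, and fell by 0.25 ± 0.06 on the log2 scale (limma adjusted p = 0.00525).

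Genes higher in TKO oocytes than in WT oocytes included the nuclear activator Psme3, the beta ring gene Psmb3 and the lid gene Psmd3. Psme3 had 50.5, 42.7 and 46.0 RPKM in TKO and 28.2, 27.3 and 25.9 RPKM in DKO, against 30.3, 30.3 and 31.4 RPKM in WT. Its log2 change was 0.58 ± 0.08 against WT (limma adjusted p = 0.000211) and 0.75 ± 0.08 against DKO (limma adjusted p = 5.8e-05) and was the largest rise among the members between TKO and DKO. Psmb3 averaged 360 ± 10.3 RPKM in TKO and 297.5 ± 11.2 RPKM in DKO, against 234 ± 20.9 RPKM in WT. It was higher in TKO than in WT (log2 change 0.62 ± 0.07, limma adjusted p = 7.5e-05) and than in DKO (0.27 ± 0.07, limma adjusted p = 0.00931). Psmd3 averaged 19.7 ± 1.44 RPKM in TKO and 14.3 ± 1.09 RPKM in DKO, against 14.6 ± 1.25 RPKM in WT (limma adjusted p = 0.00513 for TKO against WT). Psmg4 averaged 201 ± 8.94 RPKM in TKO, 165 ± 8.21 RPKM in DKO and 161 ± 10.3 RPKM in WT (limma adjusted p = 0.00283 for TKO against WT).

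The test of TKO against DKO compares oocytes without and with Mll2, both lacking Pcgf1 and Pcgf6. Here 6 genes were higher and 13 lower in TKO, of 44 tested, against a background of 26.8% of all genes called higher and 21.8% lower (48.6% in either direction). The median log2 change was -0.041 over the tested members and 0.036 over all genes. Of the 9 genes that rose in DKO relative to WT, 5 were lower in TKO than in DKO: Psmb10, Psmc1, Psmd7, Psmf1 and Psmg3. Since both comparisons use the DKO libraries, this count is a description of the 3 groups. The matching share over all genes that rose in DKO was not computed, and Psmb10 passed the filter only through the DKO group. Psmd7 had 61.6, 64.5 and 60.6 RPKM in TKO, against 92.9, 85.5 and 95.3 RPKM in DKO (log2 change -0.54 ± 0.07, limma adjusted p = 0.000252), and in TKO it was not called against WT (0.12 ± 0.07, adjusted p = 0.184). Psmf1 had 101, 127 and 120 RPKM in TKO, against 173, 190 and 178 RPKM in DKO (log2 change -0.64 ± 0.09, limma adjusted p = 0.000301), and it was also lower in TKO than in WT (-0.29 ± 0.09, adjusted p = 0.0187). Psmb10 had 0.72, 0.61 and 0.42 RPKM in TKO, against 1.83, 1.55 and 1.52 RPKM in DKO (log2 change -0.74 ± 0.13, limma adjusted p = 0.00105). Psmb10 was not called in TKO against WT (-0.29 ± 0.13, adjusted p = 0.0795), although it was called lower there after quantile normalisation (adjusted p = 0.0267) and after median-ratio scaling (adjusted p = 0.0489).

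The activator Psme2 was called higher than in WT in both DKO and TKO oocytes. It had 50.9, 62.8 and 49.3 RPKM in TKO oocytes and 51.4, 61.8 and 61.7 RPKM in DKO oocytes, against 30.8 to 32.8 RPKM in WT oocytes. It was higher in TKO than in WT (log2 change 0.75 ± 0.11, limma adjusted p = 0.000289) and was not called between TKO and DKO. Psmd13 was also higher in TKO than in WT, with 1.56, 4.30 and 2.65 RPKM in TKO, against 1.66, 1.37 and 0.83 RPKM in WT (limma adjusted p = 0.0368), but these groups overlapped and the call was lost after quantile normalisation and after median-ratio scaling. Of the antigen-presentation genes 3 of 5 tested were higher in TKO than in WT (Irf1, B2m and H2-K1). Spermatocyte markers summed to 66.0 to 97.8 RPKM in TKO and 54.2 to 59.6 RPKM in WT, and the morula markers to 45.0 to 51.2 RPKM in TKO and 21.3 to 23.3 RPKM in WT. Granulosa markers overlapped, at 24.1 to 28.7 RPKM in TKO and 24.9 to 28.5 RPKM in WT, and the part of these lists in the result was not tested.

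Several subunits differed mainly between the mutants. Psmd2 averaged 51.3 ± 6.91 RPKM in TKO and 36.4 ± 2.80 RPKM in DKO oocytes (log2 change 0.48 ± 0.10, limma adjusted p = 0.00339), and in TKO it was not called against 45.1 ± 2.23 RPKM in WT oocytes. Psma7, an abundant alpha ring gene, averaged 1142 ± 79.0 RPKM in TKO and 996.6 ± 11.5 RPKM in DKO (limma adjusted p = 0.0459), with 1041 ± 85.9 RPKM in WT. The TKO and DKO libraries of both genes did not overlap, while the TKO and WT libraries did.

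The assembly chaperones of the base were called in no oocyte comparison with all libraries and the deposited scaling. Psmd9 averaged 60.3 ± 7.34 RPKM in TKO and 60.5 ± 1.06 RPKM in DKO oocytes, against 60.5 ± 3.09 RPKM in WT oocytes. Psmd5 averaged 54.1 ± 11.8 RPKM in TKO and 61.4 ± 3.14 RPKM in DKO, against 66.7 ± 2.04 RPKM in WT, and the difference between TKO and WT missed the threshold (log2 change -0.32 ± 0.13, limma adjusted p = 0.0647). Psmd5 was called lower there after median-ratio scaling (adjusted p = 0.0344), with rescaled totals (0.0451) and without TKO replicate 2 (0.00541). Psmd10 was called higher in TKO than in WT without TKO replicate 1 (limma adjusted p = 0.00206). Of the core's chaperones, Psmg1 averaged 106 ± 3.54 RPKM in DKO and 94.0 ± 6.06 RPKM in WT, and these groups did not overlap although the change missed the threshold (0.17 ± 0.06, limma adjusted p = 0.069). The activator Psme4, which caps the core in male germ cells and in DNA repair, was not called in any oocyte comparison.

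Leaving out 1 library at a time kept 13 of the 19 calls of TKO against WT in all 9 fits, among them Psmb5, Psmc2, Psmc5, Psmc6, Psme2 and Psme3. For TKO against DKO 17 of the 19 calls were kept, and Psma7 and Psmg3 were not. Without TKO replicate 1 the calls against WT were 15 higher and 7 lower. Across the 4 oocyte comparisons 20 of the 44 genes tested in each were called in none (45.5%, against 27.5% of all 12428 genes tested in each), including 4 alpha ring genes (Psma1, Psma2, Psma3 and Psma6) and the base chaperones Psmd5, Psmd9 and Psmd10.

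**Figure D3:**
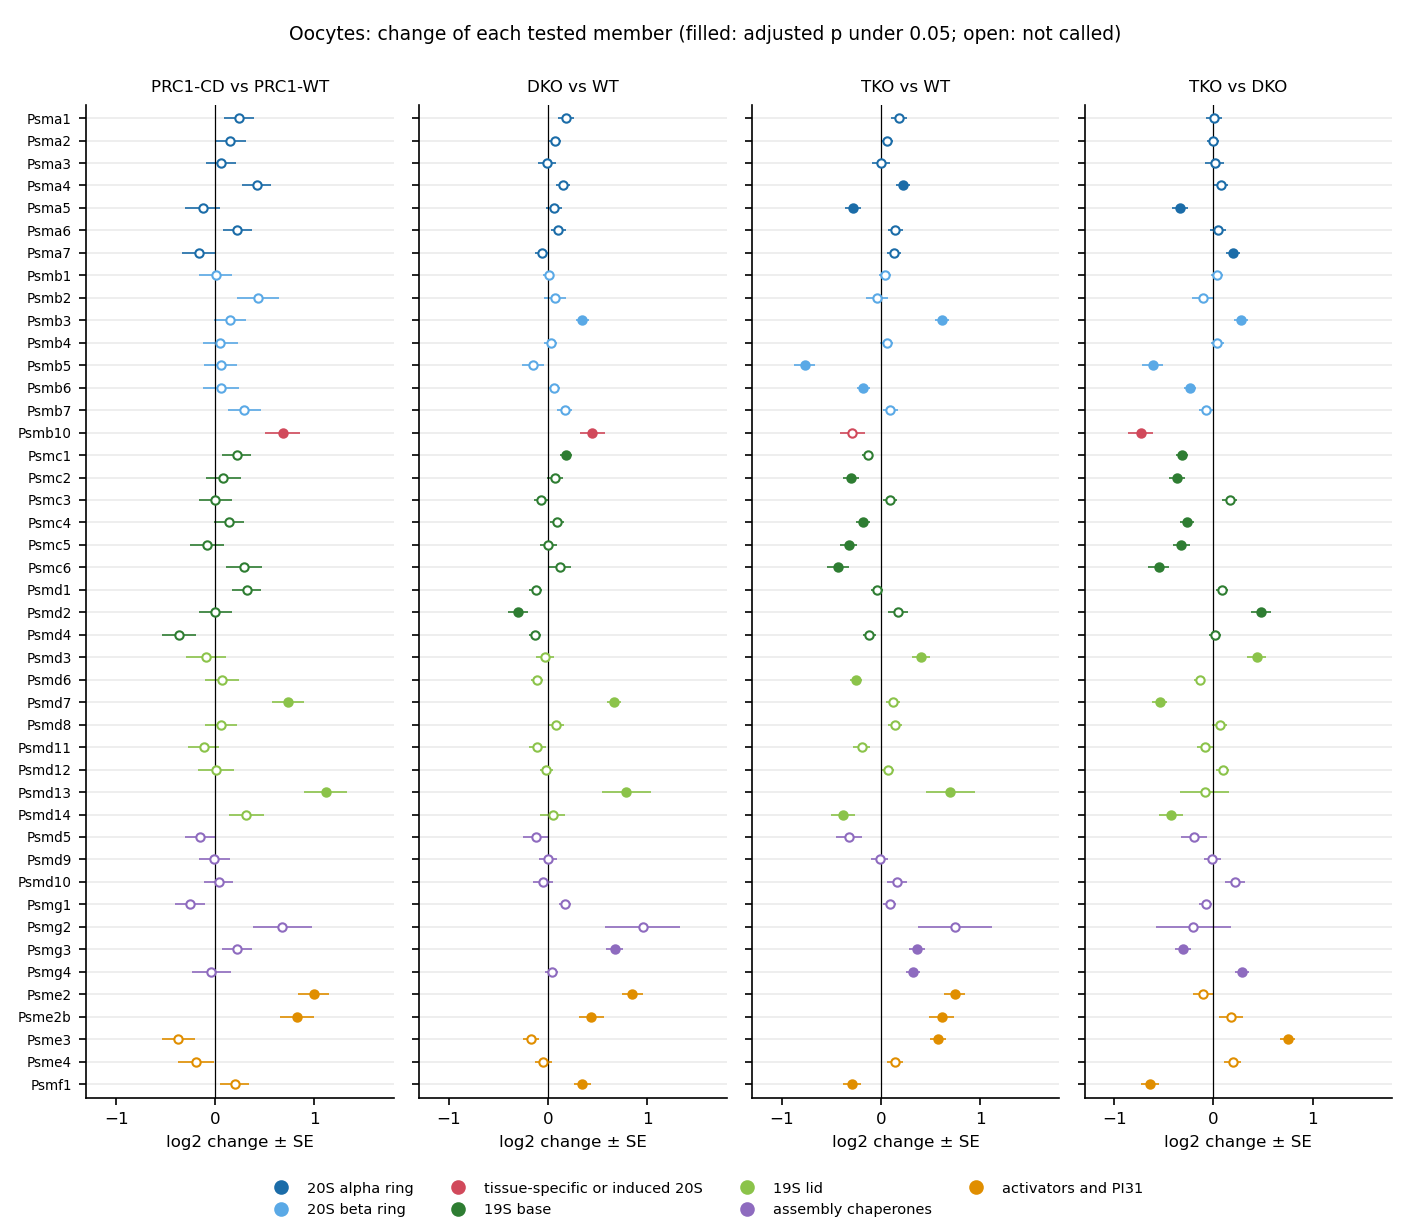
Log2 change of each tested proteasome gene in 4 oocyte comparisons (x axis, log2 of value + 1, with SE), ordered and coloured by role; filled points had an adjusted p under 0.05. Psmb9, listed at 0 in PRC1-WT, is left out. The calls in PRC1-CD are all rises, and 5 of the 6 ATPase genes Psmc1 to Psmc6 lie left of 0 in TKO against DKO.

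Genes that serve the proteasome without being subunits of it were examined as a list of 32, of which 31 were tested in oocytes. In PRC1-CD oocytes Usp14, a deubiquitinase of the cap, rose (91.1 ± 6.02 RPKM in PRC1-CD and 54.1 ± 0.13 RPKM in PRC1-WT, limma adjusted p = 0.0126). Nfe2l1, the transcription factor that raises proteasome genes when the proteasome is inhibited, fell (5.58 ± 1.21 RPKM in PRC1-CD and 11.2 ± 0.54 RPKM in PRC1-WT, limma adjusted p = 0.0164). In DKO oocytes 1 of 31 rose (Usp14, log2 change 0.38 ± 0.11) and 3 fell (Ubb, Uba1 and Akirin2). Of all genes 17.5% were called higher there and 11.3% lower (28.8% in either direction). With no filter on low values Usp14, Uba1 and Akirin2 were not called (limma adjusted p = 0.056, 0.0544 and 0.0766). Each of these genes also lost its call in several fits without 1 library. In TKO oocytes 13 of 31 rose and 2 fell relative to WT, where 31.2% of all genes were called higher and 20.1% lower (51.3% in either direction). Relative to DKO 18 rose and 3 fell, where 26.8% of all genes were called higher and 21.8% lower (48.6% in either direction). The polyubiquitin gene Ubb averaged 3119 ± 133 RPKM in TKO and 5024 ± 87.8 RPKM in DKO, against 6280 ± 202 RPKM in WT (log2 change -1.01 ± 0.05 for TKO against WT, limma adjusted p = 4.2e-07). Rps27a, which encodes ubiquitin fused to a ribosomal protein, rose in TKO by a log2 change of 0.54 ± 0.06 against WT. Zfand2a, a proteasome-binding protein induced by stress, averaged 24.99 ± 2.74 RPKM in TKO and 12.3 ± 1.58 RPKM in DKO, against 11.8 ± 0.36 RPKM in WT (limma adjusted p = 5.8e-05 against WT). Ubqln2 and Ubqln4, shuttles that carry ubiquitinated proteins to the proteasome, and the unfoldase gene Vcp rose as well, by 0.91, 0.63 and 0.44 on the log2 scale against WT. Nfe2l1 was higher in TKO, at 13.8 ± 2.59 RPKM, than in DKO, at 8.26 ± 0.45 RPKM (limma adjusted p = 0.00167).

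In morulae few single genes were called, although nearly all members leaned the same way. In matDKO morulae 1 of 47 genes tested was called lower and 0 higher, with 0.329% of all 13056 genes called higher and 1.41% lower (1.74% in either direction). The members' fitted changes were negative for 45 of 47, against 7977 of all 13056 genes, and their median was -0.298, against -0.094 over all genes. At an unadjusted p under 0.05, 22 members were lower and 0 higher, against 1656 lower and 608 higher of all 13056 genes. In matTKO morulae 1 of 47 was called lower and 0 higher (background 0.176% higher, 0.391% lower and 0.567% in either direction), 42 of 47 changes were negative, against 7504 of all 13056 genes, and the median was -0.206, against -0.057 over all genes. After quantile normalisation the members' median was -0.205 in matDKO and -0.129 in matTKO, against 0.005 and 0.006 over all genes, with 39 of 47 negative in each. Between matTKO and matDKO 0 members were called by limma, 2 were higher and 0 lower at an unadjusted p under 0.05 (585 and 282 of all genes), and 0.046% of all genes were called higher and 0.023% lower (0.0689% in either direction). Members of 1 complex are not independent, and no test was made over the list.

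The share of the library total held by the 49 genes ranged from 1.01% to 1.88% in matTKO morulae (median 1.46%) and from 0.964% to 1.67% in matDKO morulae (median 1.42%), against 1.31% to 1.98% in WT morulae (median 1.71%). The ranges overlapped, and the lowest values in both mutant groups came from libraries that stood apart. The summed level of 6 morula markers also had a lower median in both mutant groups than in WT. The sum was 645 to 2390 TPM in matTKO (median 1569) and 334 to 2433 TPM in matDKO (median 1633), against 1034 to 3885 TPM in WT (median 2601). Whether the sum and the share go together across libraries was not tested, nor was the part of the sum in the result. Fewer cells of a type and less RNA per cell cannot be told apart in whole embryos. Without the 5 libraries that stood apart, an alternative chosen after seeing the data, the members' median was -0.188 in matDKO and -0.096 in matTKO, against -0.035 and -0.021 over all genes, with 39 and 37 of 47 changes negative.

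Summed by role, the overlap was as wide. The 7 standard alpha ring genes summed to 2720 to 5905 TPM in matTKO morulae (median 4781) and 3002 to 5395 TPM in matDKO morulae (median 4690.0), against 4131 to 6600 TPM in WT morulae (median 5597). The ATPase genes summed to a median of 1717 TPM in matTKO and 1633 TPM in matDKO, against 1982 TPM in WT, and in matDKO the fitted changes of all 6 were negative. The same held in matDKO for all 7 alpha ring genes, all 7 standard beta ring genes and all 8 lid genes, and in neither group was any of them called. Only Psmb9 and Psmg2 had positive fitted changes in matDKO, while in matTKO these were Psma3, Psmb9, Psmc1, Psmd8 and Psmg3.

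Psmd10, the X-linked base chaperone (chromosome X, 140948425 to 140956711), was the gene called in matDKO. Its level was 0 to 19.4 TPM in matDKO morulae (median 8.11), against 7.09 to 37.4 TPM in WT morulae (median 24.4), so the groups overlapped. It fell by 1.54 ± 0.37 on the log2 scale (SE, limma adjusted p = 0.029). Without the 5 libraries it fell by 1.16 with an adjusted p of 0.0571 and was no longer called. Psmd10 in matTKO was 4.91 to 31.97 TPM (median 12.8) and was not called. Xist, the RNA that silences an X chromosome, was 16.5 to 70.3 TPM in matTKO (median 36.5) and 24.7 to 120 TPM in matDKO (median 57.2), against 1.74 to 67.8 TPM in WT (median 17.5), and its part in the change of Psmd10 was not tested. In oocytes Psmd10 was not called in any comparison, and Xist was listed at 0 in all oocyte libraries. Ubqln2, also on the X chromosome, was lower in matDKO as well (9.78 ± 4.86 TPM in matDKO and 22.9 ± 7.67 TPM in WT, SD, n = 10 each, limma adjusted p = 0.016), whereas Nfe2l1 was higher (27.8 ± 6.40 TPM in matDKO and 14.8 ± 3.56 TPM in WT, limma adjusted p = 0.00361).

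Psme1 was the gene called in matTKO. Its level was 22.4 to 69.6 TPM in matTKO morulae (median 45.2), against 54.8 to 125 TPM in WT morulae (median 83.3), and it fell by 0.90 ± 0.21 on the log2 scale (limma adjusted p = 0.0386). The call held without the 5 libraries. In matDKO Psme1 was 28.5 to 87.3 TPM (median 71.4) and not called, and the difference between matTKO and matDKO was not called either (log2 change -0.42 ± 0.21, adjusted p = 0.755). Psme2, raised in all mutant oocytes, was not called in morulae, at 28.9 to 178 TPM in matTKO (median 146.5) and 61.1 to 225 TPM in matDKO (median 140.3), against 103 to 253.5 TPM in WT (median 143).

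The fitted change of the immunoproteasome gene Psmb9 had the opposite sign to that of most members. It was 20.6 to 80.8 TPM in matTKO (median 58.1) and 3.75 to 94.9 TPM in matDKO (median 54.1), against 18.3 to 76.0 TPM in WT (median 29.4). With all libraries it was called in neither group (limma adjusted p = 0.537 in matTKO and 0.717 in matDKO). Without the 5 libraries that stood apart Psmb9 was called higher in matDKO, with a log2 change of 0.97 ± 0.24 (limma adjusted p = 0.0423). Psmb10 and the standard counterparts Psmb5, Psmb6 and Psmb7 were called in no morula comparison, and Psmb8 stayed at or below 1.61 TPM in every library. Of 9 antigen-presentation genes tested in morulae 0 were called by limma in the 3 comparisons, and 0 had an unadjusted p under 0.05.

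**Figure D4:**
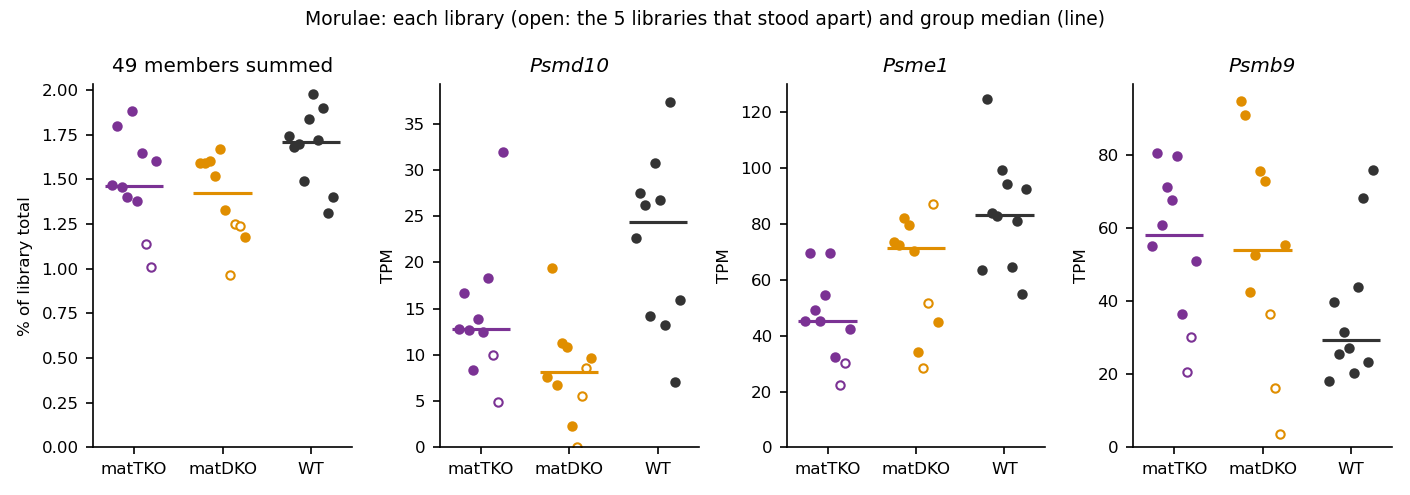
Morula libraries of matTKO, matDKO and WT (points; open points are the 5 libraries that stood apart; lines are medians), showing the 49 genes as a percentage of the library total and the levels of Psmd10, Psme1 and Psmb9 in TPM. All groups overlap; the median share is 1.46% in matTKO, 1.42% in matDKO and 1.71% in WT.

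The promoter windows shown above can be set beside the calls as a description. The matching shares over all genes with the same calls were not computed. All 11 windows of the 10 genes lower in TKO than in WT had a CpG ratio of at least 0.6, including Psmb5 and Psmc6, against 30 of 44 windows of the members. Of the genes higher in TKO than in WT, 6 of 9 windows reached it, and of those higher in DKO 5 of 9. Of the genes higher in PRC1-CD, 5 had a window, with more than 1 for Psme2 and none for Psmd7. Only 1 of these 6 windows reached it, that of Psmd13, while Psmb9 lay just under it with a ratio that rounds to 0.60. Psme2b and Psmb10 had ratios of 0.09 and 0.19. TGACNNNGC matches lay in 3 of the 11 windows of genes lower in TKO (Psmb5, Psmb6 and Psmc6), in Psmb5 at position -47 and in Psmb6 at position -9, with the start site base counted as 0, and in none of the windows of genes higher in TKO, DKO or PRC1-CD. A match is only a match of letters and does not show that a factor binds there.

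**Figure D5:**
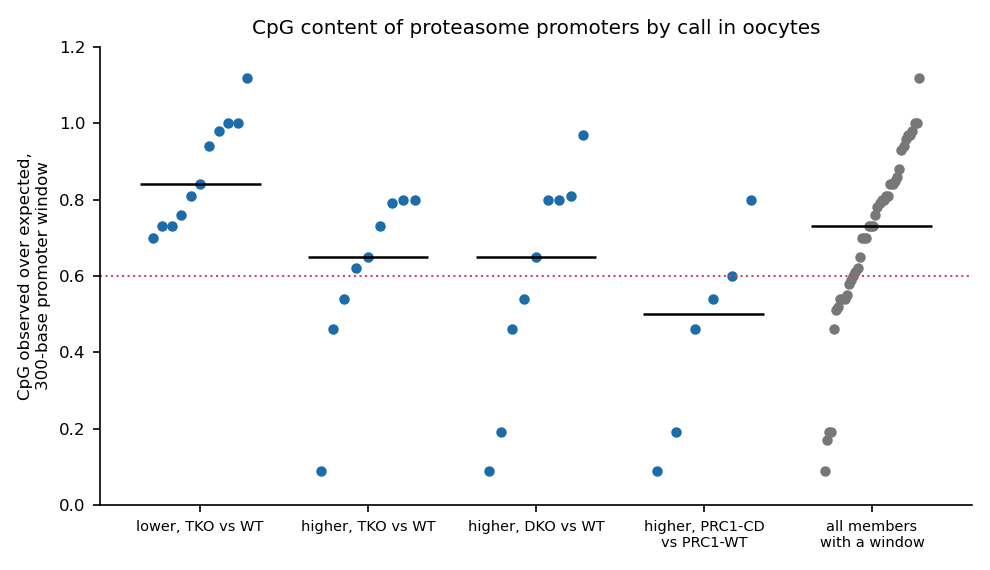
Ratio of observed to expected CpG in each 300-base promoter window (y axis) for proteasome genes grouped by call in oocytes, with all matched members at the right; lines are medians and the dotted line is 0.6. The windows of genes lower in TKO all lie above the dotted line, and those of genes higher in PRC1-CD lie mostly below it.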

How the data were processed

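Gene values of 43 mouse oocyte and morula libraries were taken from 3 deposited tables. Libraries came from polyadenylated RNA through the SMART-Seq v4 and Nextera XT kits, per the labels' protocols, which leaves strand unmarked. The submitters' processing notes name Trim Galore (0.6.4) for trimming, STAR (2.7.3 and 2.7.6), RSEM (1.3.1) and featureCounts (1.6.0), and the builds mm10 and GRCm38. The step each tool had in each table is not stated. The oocyte values are RPKM, as the deposited titles say. The deposited morula values carry the same title, but each library sums to between 999421 and 999922, so they were treated as TPM. Depth is unknown and no counting interval is given. Calendar dates stood in place of 27 gene symbols in both oocyte tables, and these entries were dropped.

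The tests used log2(value + 1), which understates the change of low genes, and limma (version 3.58.1, R version 4.3.3, lmFit and eBayes with a trend). Genes whose mean reached 1 in any group of their table were kept, and the spread was estimated over every group in the table together. Two-sided p-values were adjusted over all kept genes with the Benjamini-Hochberg method, and an adjusted p under 0.05 was a call. Adjusted p-values are from limma throughout, errors of changes are SE and errors of levels are SD. The script was tested on simulated data. The labels do not say that replicates come from separate animals, so the spread behind each p may be technical. Alternatives were a pseudocount of 0.1, no filter, quantile and median-ratio scaling, rescaled totals, a fit on 2 groups, a replicate block and leaving out libraries.

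The members and lists were chosen with earlier results of these data known. In each comparison the genes named were the called members (up to 10 in each direction), a fixed set of proteolytic, tissue-restricted, activator and chaperone genes, the 3 highest and 3 lowest members of each control group and the 5 most changed pathway genes. Others named in the text were chosen after their values were seen. Promoter windows and coordinates are from RefSeq, build GRCm38.p6. Some genes of the antigen-presentation and pathway lists are counted but not reported here by name.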

Additional observations from a re-analysis of the deposited data

Results flagged for a closer look

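Values far from the rest were looked for in morulae, the only samples with groups of 4 to 10 libraries. In 72 checks of a gene, or of the summed share of the members, in a group, 9 values were found, all of single genes. About 1 in 20 is expected by chance for independent, normally spread values, which near-0 levels such as those of Psmb8 and Psmb11 need not be. matTKO replicate 9 had a Psma7 level of 85.7 TPM and a Psmd7 level of 165.7 TPM, both the lowest of their group, and a Psmb11 level of 2.41 TPM, the highest. This library is among the 5 that stood apart. matDKO replicate 7, another of them, had the lowest Psmd9 level of its group, 7.03 TPM. Psmb8 was highest in matTKO replicate 5, at 1.61 TPM, and in matDKO replicate 5, at 0.73 TPM. Psmd10 was highest in matTKO replicate 10, at 31.97 TPM. In WT replicate 4, Psmb10 was highest at 25.7 TPM and Psmb11 at 0.63 TPM.

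The 132 checks of opposite directions set PRC1-CD beside DKO, DKO beside matDKO and TKO beside matTKO. Between PRC1-CD and DKO, where 44 members were tested in both, 2 genes moved one way in every PRC1-CD library and the other way in every DKO library. The matching share over all genes was not computed. The log2 change of Psmd1, a scaffold subunit of the base, was 0.32 in PRC1-CD against PRC1-WT and -0.13 in DKO against WT. For Psmg1, an assembly chaperone of the alpha ring, it was -0.26 in PRC1-CD and 0.17 in DKO. Neither gene was called in either comparison, and the differences were not tested.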

How the results depend on the processing

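Of the values of named genes under the alternatives, 1957 kept their call or stayed uncalled, 154 lost a call and 18 gained one. Direction reversed for 0 values called in the main fit or the alternative. Uncalled changes were counted as kept whatever their sign. The change of Psme2 in matDKO, for example, was positive (0.093) without the morula libraries that stood apart and negative with all libraries. Members called in PRC1-CD were 3 with no filter and 3 after quantile normalisation, against 6, while pathway genes called were 1 with no filter, against 2. Fits without 1 library had a single library in 1 group there, so their counts are not given. No member or pathway call was kept in all 4 of them. In DKO members called were 6 with no filter, 6 after quantile normalisation and 4 to 11 without 1 library, against 10, and pathway genes were 1 with no filter, 9 in a fit on 2 groups and 1 to 8 without 1 library, against 4. In TKO against WT the ranges without 1 library were 13 to 22 members, against 19, and 14 to 18 pathway genes, against 15. In TKO against DKO they were 17 to 22 members, against 19, and 19 to 22 pathway genes, against 21. In matDKO members called were 0 with a pseudocount of 0.1, 0 with no filter and 2 in a fit on 2 groups, against 1, and in matTKO 0 with a pseudocount of 0.1 and 0 with no filter, against 1. With the replicate block the members called were 6 in PRC1-CD, 8 in DKO, 18 in TKO against WT, 18 in TKO against DKO, 3 in matDKO, 2 in matTKO and 0 between them. Same-numbered libraries did not deviate together in every pair (correlations from -0.167 to 0.569), so the numbers were not taken to pair the samples. Quantile normalisation moved the median change of all genes in PRC1-CD to -0.085, against 0.04, with 1608 genes higher and 1538 lower, against 2309 and 750, and in DKO gave 1857 higher and 2065 lower, against 2251 and 1450. Median-ratio scaling gave 2928 higher and 3279 lower in TKO against DKO, against 3444 and 2811. A fit on 2 groups was not run for PRC1-CD, where it is the same fit. The cause of these changes was not tested. Genes near 1 RPKM, such as Psmd13, Psmb10 and Psmg2, lie close to the filter.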
